A study of Mus musculus with 8 samples.

Results

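Transcripts were measured for 10 genes whose proteins act on collagen chains after these are made, in 2 cell states of muscle progenitors from dystrophic mice. They encode the prolyl 4-hydroxylase subunits *P4ha1* and *P4ha2*, the lysyl hydroxylases *Plod1* and *Plod2*, the collagen chaperone *Serpinh1*, the procollagen C-proteinase enhancer *Pcolce* and the lysyl oxidases *Lox*, *Loxl1*, *Loxl2* and *Loxl3*. The genes were taken by name as a functional group from the 31053 genes of the count files, with no threshold on a measured value, though earlier results of these data were known when the group was chosen. All 10 were found and all 10 passed the filter on low counts that left 10181 genes for testing.

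Fibro/adipogenic progenitors (FAPs) are mesenchymal cells of the muscle interstitium that can give rise to fat cells or to matrix-producing cells. Both groups came from the hind limb muscles of 4 *mdx* mice of strain C57BL/10ScSn-Dmdmdx/J aged 45 days, so the germline *Dmd* mutation was shared by every sample and neither a wild type nor a treated group was analysed here. CD45-negative, CD31-negative, ITGA7-negative and SCA-1-positive cells were sorted by their surface SCA-1 into SCA1-High-FAPs and SCA1-Low-FAPs, with 4 samples of each. They were then grown for 5 days in medium with 20% fetal bovine serum, and the RNA is that of the cultured cells and not of freshly sorted ones. The comparison asks how the transcripts of the collagen-modifying machinery differ between these states before any induction of differentiation.

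Fibrillar collagen is built in a fixed order of steps. In the endoplasmic reticulum, prolyl 4-hydroxylase converts proline to hydroxyproline, which stabilises the triple helix, and lysyl hydroxylases prepare lysines for glycosylation and cross-linking, while HSP47, the product of *Serpinh1*, binds the folded procollagen. Outside the cell the propeptides are cut off, a step that PCPE-1, the product of *Pcolce*, speeds up at the C-terminal end, and lysyl oxidases then oxidise lysines and hydroxylysines so that collagen and elastin fibres become covalently cross-linked. FAPs are regarded as a main source of such matrix in dystrophic muscle.

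The libraries were of the 3′ type, in which a transcript yields about 1 read near its 3′ end whatever its length. Levels are given in CPM, a gene's count relative to the normalised size of its library, and on this scale levels of different genes can be set side by side without a correction for length, though not for how well each 3′ end was captured. Total counts on genes ran from 2059179 to 2723337 in SCA1-High-FAPs and from 1880561 to 3985656 in SCA1-Low-FAPs, and 3 counts, taken as the least this depth can show, stood at 0.753 to 1.6 CPM. This floor covers counting error only. SCA1-High-FAPs replicate 3 was the library least like the other state, with a mean correlation of log2 values across genes of 0.854, and SCA1-Low-FAPs replicate 3 was the most like it, with 0.919. *Ly6a*, which encodes SCA-1, was not lower in the cells sorted for low SCA-1: after culture its mean was 707 CPM (SD 183, n = 4) in SCA1-High-FAPs but 1082 CPM (SD 58.2, n = 4) in SCA1-Low-FAPs, which gave 0.61 on the log2 scale (edgeR, adjusted *p* = 0.0341). Without 1 library this call was kept in 1 of 8 fits. The sort was on surface protein before culture, so the transcript does not check the labels. *Dmd* was too low to be tested, at 0 to 1.66 CPM in SCA1-High-FAPs and 3.78 to 19.5 CPM in SCA1-Low-FAPs.

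One of the cross-linking enzymes, *Loxl3*, passed the test and stood at about 1.92-fold the SCA1-High-FAPs level in SCA1-Low-FAPs. *Plod2* was lower in SCA1-Low-FAPs by 0.56 on the log2 scale and missed the limit on the adjusted *p* narrowly, and *P4ha2* and *Pcolce* differed without overlap between the groups but did not pass. The most abundant members, *Lox* and *Serpinh1*, differed by less than their spread between replicates. A gene was called where its adjusted *p* in edgeR's quasi-likelihood test was under 0.05 and its log2 fold change, always SCA1-Low-FAPs over SCA1-High-FAPs, was beyond 0.5 in size. By this rule 1 of 10 members was called, and 782 of all 10181 tested genes were called, which is 7.68%. The 1 called member was higher in SCA1-Low-FAPs, as were 3.32% of all tested genes, and no member was called higher in SCA1-High-FAPs, where 4.36% of all genes were. Before adjustment 5 members had a *p* under 0.05 (*Loxl3*, *Plod2*, *Pcolce*, *P4ha2* and *Loxl1*), beside 21.3% of all tested genes. In 3 members the 4 values of one group lay apart from the 4 of the other, beside 14.1% of all tested genes. Of these, 2 were higher in SCA1-Low-FAPs, beside 6.72% of all genes, and 1 was higher in SCA1-High-FAPs, beside 7.42%. DESeq2 called 2 members, *Loxl3* and *Plod2*, and 9.62% of the same 10181 genes. The log2 fold change was above 0 for 8 members and below 0 for 2, with a median of 0.21, against a median of 0.0003 over all tested genes.

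**Figure D1:**
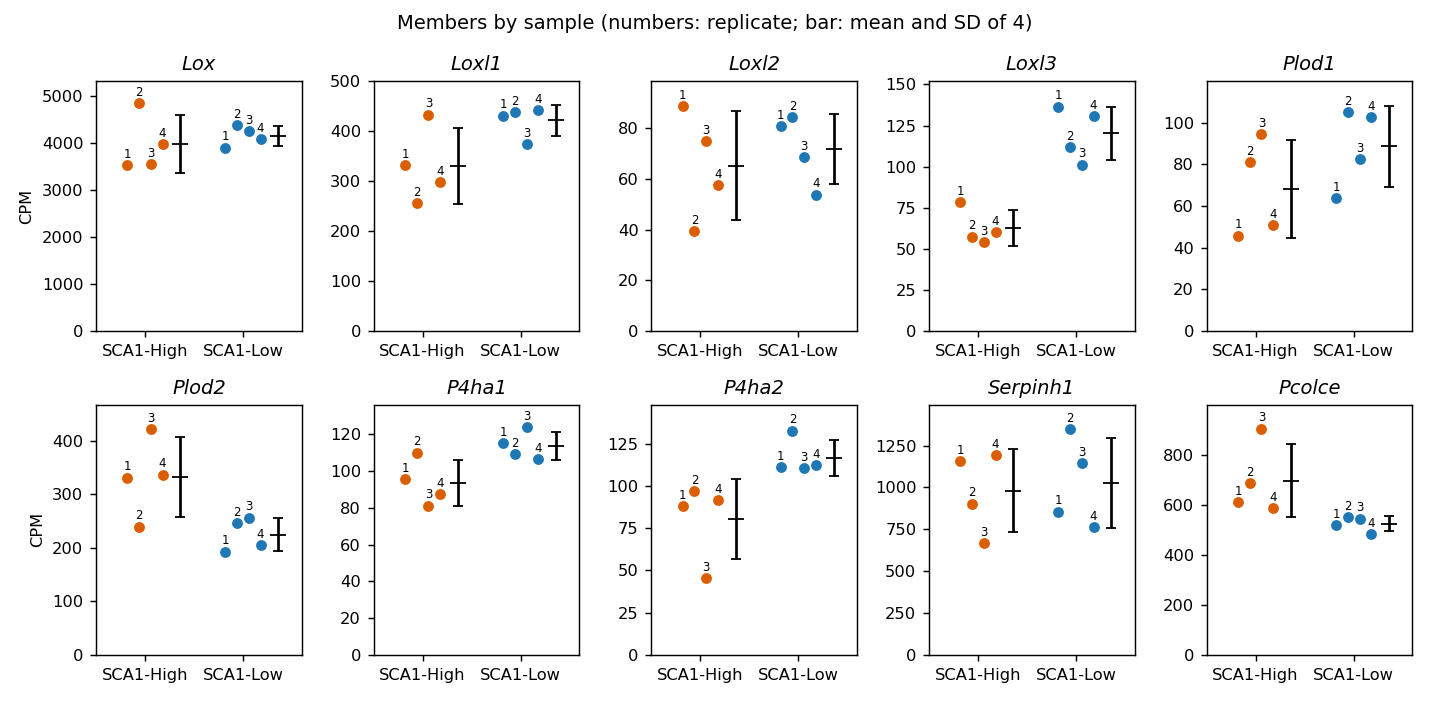
Level of each of the 10 genes in CPM (vertical axis, from 0, a separate scale for each gene) in the 4 SCA1-High-FAPs samples (orange) and the 4 SCA1-Low-FAPs samples (blue), with replicate numbers above the points and the mean and SD as bars. The groups are apart in *Loxl3* and *P4ha2*, higher in SCA1-Low-FAPs, and in *Pcolce*, higher in SCA1-High-FAPs, and they overlap in the other 7.

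The prolyl 4-hydroxylase is a tetramer whose catalytic alpha subunits come from *P4ha1*, *P4ha2* or *P4ha3* and whose beta subunit is the protein disulphide isomerase *P4hb*. *P4ha2* (chr11:54100095-54131665, plus strand, GRCm38) stood at 87.9, 97.1, 45.6 and 91.5 CPM in SCA1-High-FAPs replicates 1 to 4 and at 111, 133, 111 and 112 CPM in SCA1-Low-FAPs. Every SCA1-Low-FAPs value was above every SCA1-High-FAPs value, and SCA1-High-FAPs replicate 3 was far below the others of its group. The means were 80.5 ± 23.6 and 117 ± 10.7 CPM (SD, n = 4), and the log2 fold change of 0.53 (SE 0.21, 95% interval 0.10 to 0.97) did not pass, with an adjusted *p* of 0.134. Without SCA1-High-FAPs replicate 3 it was 0.34 (adjusted *p* = 0.282).

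*P4ha1*, which encodes the alpha subunit found in most cell types (chr10:59323296-59373304, plus strand), stood at 95.9, 110, 81.3 and 87.5 CPM in SCA1-High-FAPs and at 115, 109, 124 and 107 CPM in SCA1-Low-FAPs. The groups overlapped through SCA1-High-FAPs replicate 2 alone. Its log2 fold change was 0.28 (95% interval -0.06 to 0.62, adjusted *p* = 0.339). Of the subunits outside the 10 genes, *P4ha3* differed by 0.27 on the log2 scale (adjusted *p* = 0.551) and *P4hb* by 0.08 (adjusted *p* = 0.806). The value of *P4ha3* ran from 0.09 without SCA1-High-FAPs replicate 1 to 0.53 without SCA1-High-FAPs replicate 4. None of the 4 subunit genes passed the test, though all 4 had values above 0.

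Promoter sequences of RefSeq (GRCm38.p6) were at hand for 5 of the 10 genes: *Plod1*, *P4ha1*, *P4ha2*, *Serpinh1* and *Pcolce*. The 250 bases before each transcription start were searched on both strands for ACGTG and GCGTG, the core letters of the hypoxia response element, because prolyl and lysyl hydroxylases are known among the genes that respond to low oxygen. The letters occurred in 5 of these 5 promoters and in 38.6% of the 32851 promoters of the table. The 5 windows held 58.8% to 70% G and C, and the promoters of the table were not matched to them for this content. No matches overlapped in these 5, and a match is no evidence of binding. The promoters of both prolyl 4-hydroxylase subunits are shown since each holds 3 matches, the most among the 5, and that of *Pcolce*, with 1 match, is shown beside them because its transcript lay on the other side of 0. They are written 5′ to 3′ on the strand of the gene, with the searched letters or their complement in capitals. The windows are chr10:59323046-59323295 (plus strand), chr11:54100674-54100923 (plus strand) and chr5:137611405-137611654 (minus strand). Those of *P4ha2* and *Pcolce* lie within the annotated spans of the genes, so the starts used are not their outermost ones.
P4ha1: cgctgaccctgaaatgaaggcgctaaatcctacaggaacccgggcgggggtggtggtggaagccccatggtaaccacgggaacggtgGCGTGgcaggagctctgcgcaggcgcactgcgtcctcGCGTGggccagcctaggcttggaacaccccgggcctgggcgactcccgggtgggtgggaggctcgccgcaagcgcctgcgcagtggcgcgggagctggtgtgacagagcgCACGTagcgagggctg
P4ha2: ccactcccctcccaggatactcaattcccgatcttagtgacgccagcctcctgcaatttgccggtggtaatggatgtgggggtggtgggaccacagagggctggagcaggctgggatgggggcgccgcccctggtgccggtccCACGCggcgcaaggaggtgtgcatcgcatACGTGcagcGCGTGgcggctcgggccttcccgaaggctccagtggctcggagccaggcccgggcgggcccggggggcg
Pcolce: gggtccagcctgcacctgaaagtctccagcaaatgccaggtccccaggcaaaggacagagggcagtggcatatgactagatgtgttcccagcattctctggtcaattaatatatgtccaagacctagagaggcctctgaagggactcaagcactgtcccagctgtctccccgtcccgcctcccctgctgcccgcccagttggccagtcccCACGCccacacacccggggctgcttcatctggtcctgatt
The matches begin at positions -163, -126 and -16 from the start in *P4ha1*, at -107, -78 and -69 in *P4ha2* and at -40 in *Pcolce*. *Plod1* and *Serpinh1* each hold 1 match, at -20 and -171.

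The lysyl hydroxylases act on different parts of the chain: *Plod1* and *Plod3* mainly on the helix, *Plod3* also as a glycosyltransferase, and *Plod2* on the telopeptides, where hydroxylysine leads to the cross-links found in fibrotic tissue. *Plod2* (chr9:92542223-92608428, plus strand) stood at 331, 239, 421 and 337 CPM in SCA1-High-FAPs and at 193, 246, 256 and 205 CPM in SCA1-Low-FAPs. SCA1-High-FAPs replicate 2 lay within the range of SCA1-Low-FAPs, and the other 3 SCA1-High-FAPs samples were above it. The means were 332 ± 74.3 and 225 ± 31.0 CPM (SD, n = 4), and the log2 value was -0.56 (SE 0.17, 95% interval -0.93 to -0.20) at an adjusted *p* of 0.0519. *Plod2* was thus not called, but it was called in 5 of the other fits. The adjusted *p* was 0.0352 in DESeq2, 0.0229 with no filter beyond 1 count, 0.0366 with at least 10 counts in every sample, 0.022 without SCA1-High-FAPs replicate 2 and 0.0358 without SCA1-Low-FAPs replicate 3. Over the 8 fits without 1 library it ranged from 0.022 to 0.179, and without SCA1-High-FAPs replicate 3 the log2 fold change was -0.43.

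*Plod1* (chr4:147909753-147936767, minus strand) varied widely among SCA1-High-FAPs, from 45.8 to 94.5 CPM, and stood at 63.9 to 105 CPM in SCA1-Low-FAPs. Its log2 fold change of 0.38 (95% interval -0.12 to 0.88) had an adjusted *p* of 0.396, and ran from 0.24 without SCA1-High-FAPs replicate 1 to 0.58 without SCA1-High-FAPs replicate 3. *Plod3* was the most abundant lysyl hydroxylase transcript, with means of 396 ± 36.2 CPM for SCA1-High-FAPs and 362 ± 49.7 CPM for SCA1-Low-FAPs (SD, n = 4) and a log2 fold change of -0.13 (adjusted *p* = 0.664). Part of the 5′ end of *Plod3* lies opposite *Znhit1* on the other strand, whose own log2 value was -0.35 (adjusted *p* = 0.512).

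*Serpinh1* (chr7:99345376-99353239, minus strand) is the collagen-specific chaperone of the endoplasmic reticulum and was the second most abundant of the 10 transcripts. It stood at 1159, 904, 667 and 1194 CPM in SCA1-High-FAPs and at 855, 1349, 1143 and 764 CPM in SCA1-Low-FAPs. The groups overlapped almost fully. The log2 fold change was 0.07 (95% interval -0.37 to 0.50, adjusted *p* = 0.904), an interval that leaves out differences beyond 0.5 in size in either direction.

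*Pcolce* (chr5:137605103-137613784, minus strand) stood at 611, 687, 905 and 585 CPM in SCA1-High-FAPs and at 519, 551, 545 and 483 CPM in SCA1-Low-FAPs. Every SCA1-High-FAPs value was above every SCA1-Low-FAPs value, by a small margin, with replicate 3 well above the others of its group. The log2 fold change of -0.41 (SE 0.15, 95% interval -0.74 to -0.09) did not pass (adjusted *p* = 0.115), and without SCA1-High-FAPs replicate 3 it was -0.26 (adjusted *p* = 0.323). Among the proteins that remove the propeptides, *Bmp1*, the C-proteinase that PCPE-1 enhances, was at -0.37 on the log2 scale (adjusted *p* = 0.25), and *Pcolce2*, the related enhancer, at -0.26 (adjusted *p* = 0.39). *Adamts2*, the main N-proteinase of procollagen, was the gene of this step that passed. It stood at 365.6, 464.1, 515.8 and 473.6 CPM in SCA1-High-FAPs and at 274.5, 274.1, 314.7 and 275.5 CPM in SCA1-Low-FAPs, with no overlap. Its log2 fold change was -0.68 (SE 0.14, 95% interval -0.98 to -0.37, edgeR adjusted *p* = 0.00762), and it was called in 8 of 8 fits without 1 library, from -0.76 to -0.61.

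Among the lysyl oxidases, *Lox* (chromosome 18, minus strand) made up most of the transcripts and ranked as number 10 of all tested genes by its mean level. It stood at 3532, 4856, 3551 and 3980 CPM in SCA1-High-FAPs and at 3907, 4386, 4263 and 4090 CPM in SCA1-Low-FAPs. All SCA1-Low-FAPs values fell inside the range of SCA1-High-FAPs. The log2 fold change was 0.06 (95% interval -0.24 to 0.37, adjusted *p* = 0.864).

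*Loxl3* (chr6:83034173-83052562, plus strand), a lysyl oxidase-like enzyme with scavenger receptor domains, stood at 78.6, 57.5, 54.3 and 60.2 CPM in SCA1-High-FAPs and at 136.5, 112.1, 101.2 and 130.8 CPM in SCA1-Low-FAPs. The lowest SCA1-Low-FAPs sample was above the highest SCA1-High-FAPs sample, and these values rest on 128 to 498 counts per sample. The means were 62.6 ± 10.9 and 120 ± 16.4 CPM (SD, n = 4), which is 0.94 on the log2 scale (SE 0.18, 95% interval 0.56 to 1.32) with an adjusted *p* of 0.00348 in edgeR and 0.000111 in DESeq2. It was called in 8 of 8 fits without 1 library, with log2 fold changes from 0.88 to 1.07. The 3′ part of *Loxl3* shares 535 exonic bases with *Htra2* on the opposite strand, between 20 and 1296 bases before the 3′ end of *Loxl3*, where 3′ reads fall. The strand setting of the counting is not given in the sources used here. Of the other pathway genes, *Ppib*, *Colgalt1* and *P3h2* also share exonic bases with an opposite gene, up to their 3′ ends. *Ppib* and *Colgalt1* kept 5819 and 6166 counts over all samples, against 2 for *Snx22* and 22 for *Unc13a* opposite them. *P3h2* had only 92 counts, against 7 for *Gm4524*. Whether reads of *Loxl3* and *Htra2* were told apart was not tested. *Htra2*, which encodes a mitochondrial protease, stood at 44.4, 22.5, 13.3 and 36.1 CPM in SCA1-High-FAPs and at 56.2, 30.9, 41.3 and 38.1 CPM in SCA1-Low-FAPs, with a log2 fold change of 0.52 (SE 0.32, adjusted *p* = 0.389). Its part in the *Loxl3* values was not tested.

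*Loxl1* (chr9:58287738-58313186, minus strand), which is needed for the upkeep of elastic fibres, stood at 332, 256, 433 and 299 CPM in SCA1-High-FAPs and at 431, 439, 374 and 442 CPM in SCA1-Low-FAPs. In both groups replicate 3 lay apart from the other samples and towards the other group. The log2 fold change of 0.35 (95% interval 0.01 to 0.69) did not pass (adjusted *p* = 0.216). *Loxl2* (chr14:69609068-69695834, plus strand), an oxidase of collagen IV in basement membranes, overlapped fully between the groups, with 39.5 to 88.8 CPM in SCA1-High-FAPs and 53.8 to 84.5 CPM in SCA1-Low-FAPs. Its log2 fold change was 0.13 (95% interval -0.36 to 0.63, adjusted *p* = 0.812). *Loxl4*, outside the 10 genes, was near the lower end of detection, at 9.32 ± 6.43 and 16.5 ± 5.44 CPM (SD, n = 4), with a log2 fold change of 0.83 (95% interval -0.17 to 1.83, adjusted *p* = 0.34).

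The makeup of each enzyme family was also compared, as the share of its counts that came from 1 isoenzyme in each sample, since such shares do not depend on the library size. *Lox* held 87.5%, 93%, 86.3% and 90.2% of the lysyl oxidase counts in SCA1-High-FAPs and 85.6%, 87.1%, 88.3% and 86.4% in SCA1-Low-FAPs, from families of 8630 to 18033 counts per sample. The difference of the means was -2.41 percentage points, and exact permutation of the labels in all 70 ways, two-sided, gave *p* = 0.229 (0.343 after Benjamini-Hochberg adjustment over 3 shares). Without SCA1-High-FAPs replicate 2 the difference was -1.17 percentage points. *Loxl3* held 1.43% ± 0.361 of these counts in SCA1-High-FAPs, against 2.52% ± 0.426 in SCA1-Low-FAPs (SD, n = 4).

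*Plod2* held 46%, 32.2%, 45.5% and 42.3% of the lysyl hydroxylase counts in SCA1-High-FAPs and 33.7%, 33.5%, 33.7% and 32.3% in SCA1-Low-FAPs, from 1191 to 2415 counts per sample. In SCA1-Low-FAPs the 4 shares were nearly equal, with an SD of 0.691 percentage points against 6.41 in SCA1-High-FAPs. SCA1-High-FAPs replicate 2 alone kept the groups from lying apart. The difference of -8.22 percentage points had an exact permutation *p* of 0.143 (adjusted 0.343). Over the 8 fits without 1 library the difference ran from -6.72 percentage points without SCA1-High-FAPs replicate 1 to -11.3 without SCA1-High-FAPs replicate 2. Of the other lysyl hydroxylases, *Plod3* held 50% ± 5.4 in SCA1-High-FAPs, against 53.6% ± 2.03 in SCA1-Low-FAPs, and *Plod1* 8.45% ± 2.43 and 13.1% ± 2.58 (SD, n = 4).

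*P4ha1* held 39.6%, 34.5%, 40.7% and 27.1% of the counts of the 3 alpha subunits in SCA1-High-FAPs and 32.9%, 30.7%, 34.9% and 32.5% in SCA1-Low-FAPs, from 482 to 1249 counts per sample. The 3 subunits were thus present at like levels in SCA1-Low-FAPs, where *P4ha2* held 33.6% ± 2.82 and *P4ha3* 33.7% ± 1.46 (SD, n = 4). The difference for *P4ha1* was -2.7 percentage points (exact permutation *p* = 0.4, adjusted 0.4), and ran from -0.968 without SCA1-High-FAPs replicate 3 to -5.48 without SCA1-High-FAPs replicate 4. The smallest *p* this design allows is 0.0286, which for 1 share alone is 0.0857 after adjustment over 3, so a single share could not pass.

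**Figure D2:**
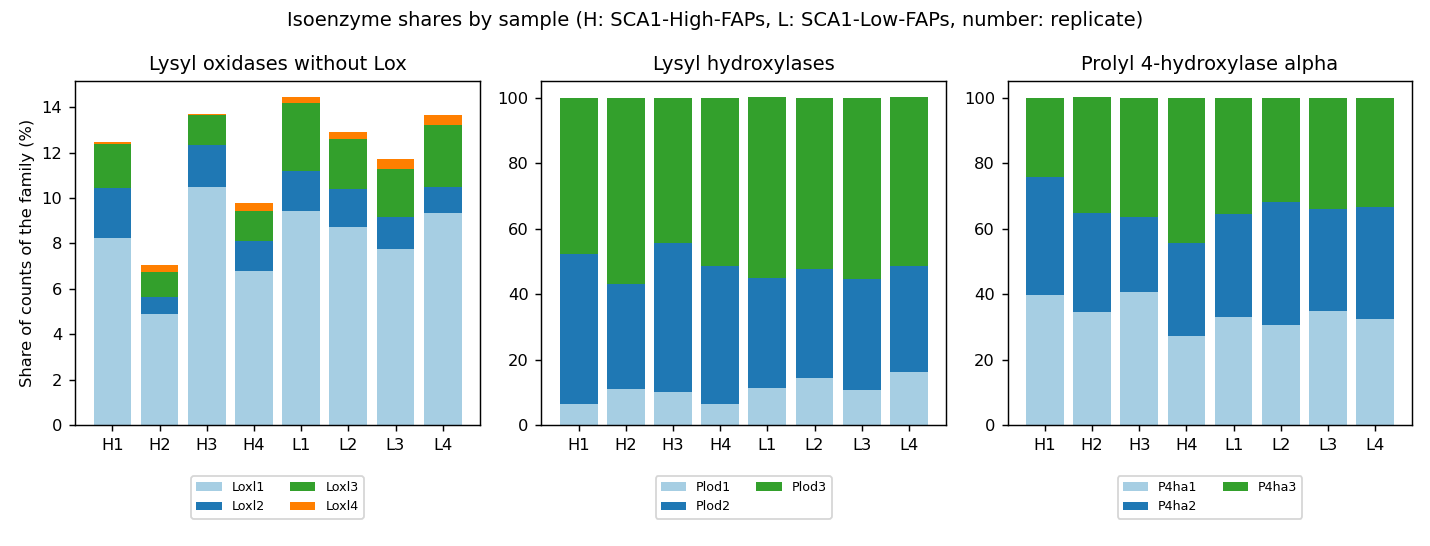
Share of the counts of each enzyme family held by each isoenzyme (vertical axis, percent) in each of the 8 samples (H, SCA1-High-FAPs, L, SCA1-Low-FAPs, numbers are replicates). The left panel leaves out *Lox*, which holds the remaining 85.6% to 93%, and the middle panel shows *Plod2* at 32.3% to 33.7% in the 4 SCA1-Low-FAPs samples and at 32.2% to 46% in SCA1-High-FAPs.

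Replicates of SCA1-High-FAPs spread more widely than those of SCA1-Low-FAPs in 9 of the 10 transcripts, the exception being *Serpinh1*. The coefficient of variation had a median over the 10 genes of 22.6% in SCA1-High-FAPs but 11.4% in SCA1-Low-FAPs, beside 25.3% and 24.4% over all tested genes, where it was larger in SCA1-High-FAPs for 52.8%. These genes were measured in the same 8 libraries, so the count carries no test. SCA1-High-FAPs replicate 3 was the lowest of its group for 4 genes (*Loxl3*, *P4ha1*, *P4ha2* and *Serpinh1*) and the highest for another 4 (*Loxl1*, *Plod1*, *Plod2* and *Pcolce*). SCA1-Low-FAPs replicate 2 was the highest of its group for 6 genes and the lowest for 0.

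Another 23 genes of collagen hydroxylation, glycosylation, folding, export, propeptide removal and cross-linking were read from the same fit. Of these, 18 were tested and 1 was called, *Adamts2*, higher in SCA1-High-FAPs, beside the 7.68% of all tested genes. In 2 of the 18 the unadjusted *p* was under 0.05, beside 21.3% of all tested genes. They were *Adamts2* and the collagen-binding prolyl isomerase *Fkbp10*, the latter at 0.36 on the log2 scale (adjusted *p* = 0.171). The median log2 fold change of the 18 was -0.08. *Colgalt2*, *Tll1*, *Adamts3* and *Adamts14* were too low to be tested and *Tll2* had 0 counts in all samples.

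**Figure D3:**
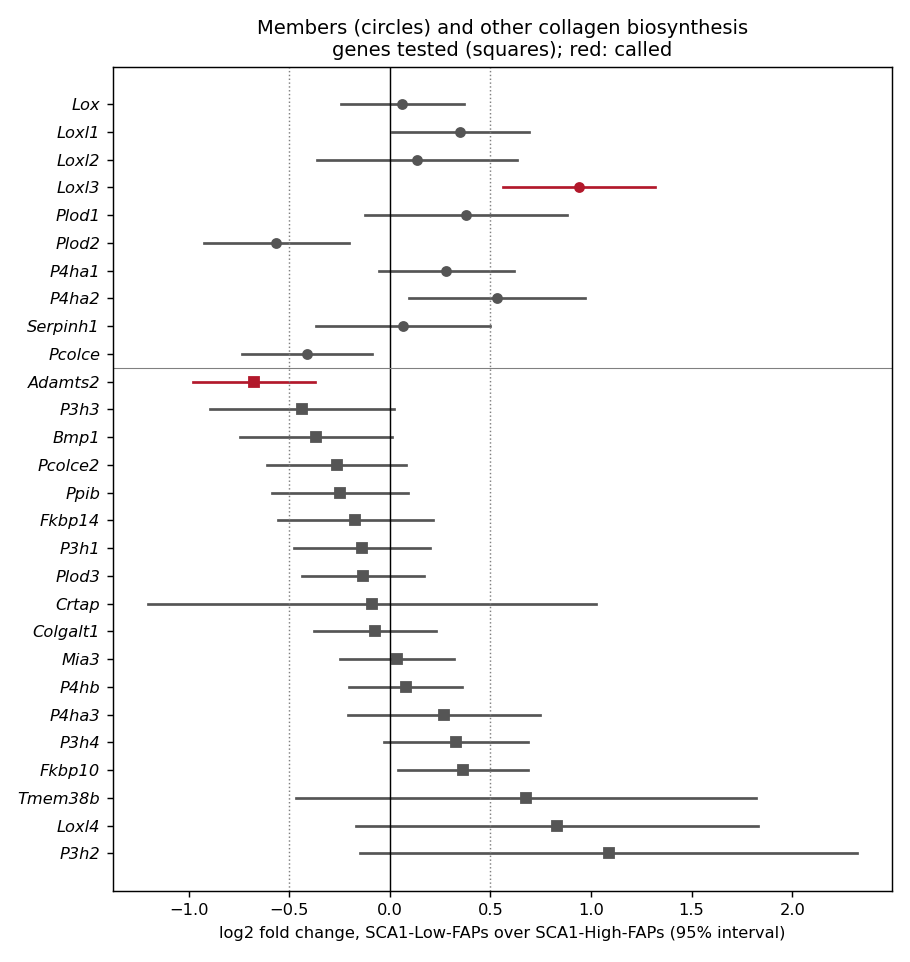
Log2 fold change, with SCA1-High-FAPs as the base (horizontal axis), with its 95% interval for the 10 genes (circles, top) and the 18 tested genes of the same pathway (squares, below), with dotted lines at -0.5 and 0.5 and called genes in red. *Loxl3* at 0.94 and *Adamts2* at -0.68 are the 2 called genes, and *Plod2* at -0.56 lies beyond the lower dotted line without being called.

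Among the substrates of these enzymes, 2 of 7 genes for fibrillar collagen chains and elastin were called, both higher in SCA1-High-FAPs, as were 4.36% of all tested genes. *Col3a1* had a log2 fold change of -1.03 (edgeR adjusted *p* = 0.0294), which passed in 2 of 8 fits without 1 library, and *Col5a3* of -1.61 (adjusted *p* = 0.000394), which passed in 8 of 8. The chains of collagen I were not called, with -0.20 for *Col1a1* (adjusted *p* = 0.587) and -0.36 for *Col1a2* (adjusted *p* = 0.394, from -0.54 without SCA1-Low-FAPs replicate 3 to -0.21 without SCA1-Low-FAPs replicate 4), and the median of the list was -0.36.

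Transcript levels of the 10 genes were also set against those of the collagen chains they act on, as CPM per 1000 CPM of *Col1a1*, *Col1a2* and *Col3a1* together, a scale chosen after the data were seen and described with no test. This sum was 24296, 24905, 18036 and 26671 CPM in SCA1-High-FAPs and 14570, 20077, 23365 and 12146 CPM in SCA1-Low-FAPs, with overlap. It includes *Col3a1*, itself called higher in SCA1-High-FAPs, and a lower sum raises the value of any gene on this scale. On this scale 4 of the 10 genes were higher in every SCA1-Low-FAPs sample than in any SCA1-High-FAPs sample (*Loxl3*, *P4ha1*, *P4ha2* and *Serpinh1*). Of all tested genes 11.5% were so on this scale, against 6.72% in CPM. *Serpinh1*, whose CPM overlapped almost fully, stood at 47.7, 36.3, 37 and 44.8 per 1000 in SCA1-High-FAPs and at 58.7, 67.2, 48.9 and 62.9 per 1000 in SCA1-Low-FAPs. *Loxl3* stood at 3.23, 2.31, 3.01 and 2.26 per 1000 against 9.37, 5.58, 4.33 and 10.8 per 1000. *Lox* and *Plod2* overlapped on this scale, with *Plod2* at 9.62 to 23.4 per 1000 in SCA1-High-FAPs and 11 to 16.8 per 1000 in SCA1-Low-FAPs.

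Of the 8 tested genes of a list that responds to low oxygen, 3 were called, in both directions, beside 7.68% of all tested genes. Lactate dehydrogenase *Ldha* was higher in SCA1-Low-FAPs, with a log2 fold change of 0.89 (edgeR adjusted *p* = 0.00144), while *Bnip3*, a mitophagy receptor, at -0.86 (adjusted *p* = 0.0284) and *Ndrg1*, a stress-response gene, at -1.12 (adjusted *p* = 0.0147) were higher in SCA1-High-FAPs. Without 1 library *Ldha* stayed called in 8 of 8 fits, *Ndrg1* in 7 and *Bnip3* in 4. The median of the list was -0.05. Of 7 genes that respond to TGF-beta, 4 were called, beside the same 7.68%. *Skil* (log2 fold change 1.25), *Tagln* (1.12) and *Acta2* (1.40) were higher in SCA1-Low-FAPs, with adjusted *p* from 0.00843 to 0.0221, and *Postn* was higher in SCA1-High-FAPs (-0.58, adjusted *p* = 0.0286). *Skil* stayed called in 8 of 8 fits without 1 library, and *Tagln*, *Acta2* and *Postn* in 3 each. The median of the list was 1.12.

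Markers of dividing cells and of fat cells moved with the groups. *Mki67*, *Top2a*, *Ccnb1* and *Aurka*, 4 of 4 dividing-cell markers, were called higher in SCA1-Low-FAPs, beside 3.32% of all tested genes. Their summed levels were 719 to 1091 CPM in SCA1-Low-FAPs against 420.9 to 560.3 CPM in SCA1-High-FAPs. Of 4 fat cell markers, *Adipoq* and *Lipe* were called higher in SCA1-High-FAPs, beside 4.36% of all tested genes. *Plin1* (log2 fold change -2.45, edgeR adjusted *p* = 0.0751) and *Cfd* (-5.46, edgeR adjusted *p* = 0.0534) were not called, though also higher in every SCA1-High-FAPs sample. DESeq2 called all 4, beside 9.62% of all tested genes. The summed level of the 4 ran from 243.2 to 2113 CPM in SCA1-High-FAPs and from 28.36 to 130.2 CPM in SCA1-Low-FAPs, with none of the 4 at 0. Of 4 pericyte and smooth muscle markers, *Cspg4* and *Myh11* were called higher in SCA1-Low-FAPs, beside 3.32% of all tested genes. Sums over the 4 were 21.44 to 62.83 CPM in SCA1-Low-FAPs against 12.58 to 31.79 CPM in SCA1-High-FAPs. *Rgs5* and *Mcam*, too low to be tested, had lower means in SCA1-Low-FAPs, at 1.895 against 3.257 CPM and 2.452 against 5.542 CPM. The part of dividing, fat, pericyte and smooth muscle cells in the values of *Loxl3* and *Plod2* was not tested. In bulk samples fewer cells of a type and less RNA per cell cannot be told apart.

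Defining markers of the cells that the sort excludes were at or near 0. Leucocyte markers (0 of 3 tested, *Itgam* at 0) summed to at most 5.805 CPM, endothelial markers to at most 6.5 CPM, and *Pax7*, *Myod1* and *Myog* of the muscle lineage were at 0 in all samples, with *Itga7* at most 9.75 CPM. Schwann cell markers (0 of 2 tested) summed to at most 5.392 CPM and tendon markers to 9.979 to 47.63 CPM, none of them called in edgeR. The tendon marker *Tnmd* was higher in every SCA1-High-FAPs sample (log2 fold change -1.55, edgeR adjusted *p* = 0.053) and was called by DESeq2 (adjusted *p* = 0.0267). The tendon markers *Scx* and *Mkx*, too low to be tested, had higher means in SCA1-Low-FAPs, at 3.198 against 0 CPM and 2.785 against 1.176 CPM. Of 3 cartilage markers, with sums of 280 to 397.4 CPM mostly from *Sox9*, *Col2a1* was called higher in SCA1-Low-FAPs, beside 3.32% of all tested genes. *Acan* was at 0. Of 5 FAP markers, which summed to 1477 to 2215 CPM, *Ly6a* and *Thy1* were called higher in SCA1-Low-FAPs, beside 3.32% of all tested genes. *Dcn* was called higher in SCA1-High-FAPs, beside 4.36%. *Pdgfra*, present in all samples (log2 fold change -0.41, edgeR adjusted *p* = 0.159), and *Cd34* (0.57, edgeR adjusted *p* = 0.52) were not called. *Cd34* was low, at 4.88 to 30.8 CPM over all samples.

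**Figure D4:**
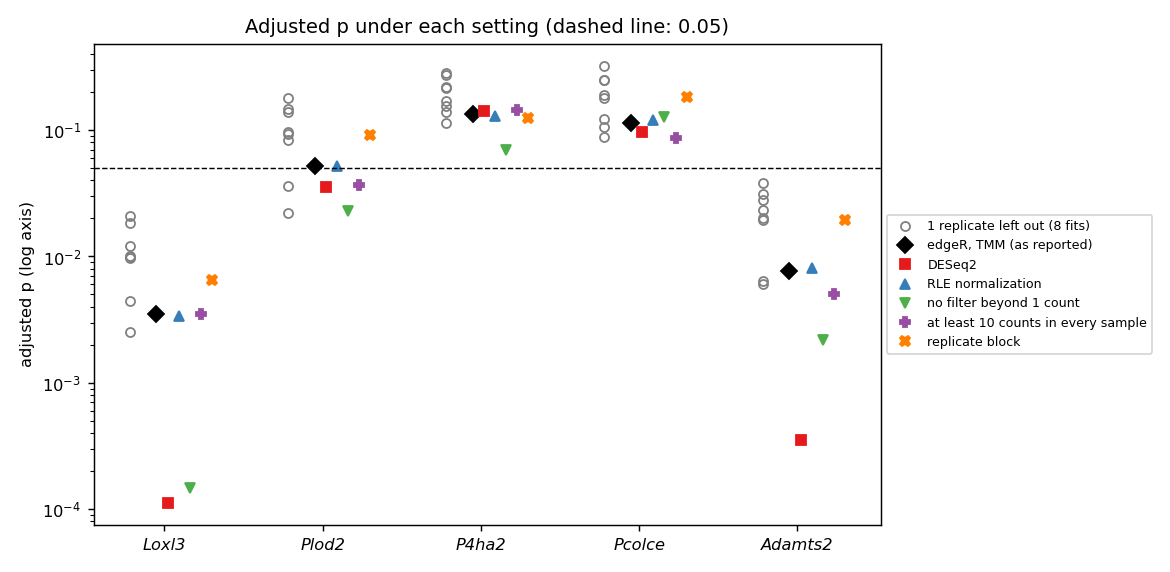
Adjusted *p* (vertical axis, log scale) of *Loxl3*, *Plod2*, *P4ha2*, *Pcolce* and *Adamts2* as reported and under each other setting, with open circles for the 8 fits without 1 library and a dashed line at 0.05. *Loxl3* stays between 0.000111 and 0.0211 and *Adamts2* between 0.000354 and 0.038, *Plod2* crosses the line with a range of 0.022 to 0.179, and *P4ha2* and *Pcolce* stay above it.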

How the data were processed

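RNA of 8 samples, 4 SCA1-High-FAPs and 4 SCA1-Low-FAPs, was measured with QuantSeq 3′ mRNA libraries, which read from the 3′ end of transcripts. The authors trimmed the reads, aligned them with STAR to mm10, counted them on genes of Ensembl with htseq-count and deposited raw counts per gene without normalisation. Reads aligned to several positions were tallied apart, 13.3% to 16.4% of reads fell on no gene and 0.605% to 0.793% were ambiguous. Neither a strand setting nor molecular identifiers are given in the sources used here. Names and positions came from GENCODE M21 on GRCm38, with 30934 of 31053 identifiers matched.

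Counts were filtered with filterByExpr (minimum 10 counts, 15 in total), normalised by TMM and tested in edgeR 4.0.16 (R 4.3.3) by its quasi-likelihood method with robust dispersions, with Benjamini-Hochberg adjustment over all 10181 genes. Where DESeq2 1.42.0 is not named, adjusted *p*-values come from edgeR. The SE is the size of the log2 fold change over the square root of F. Alternatives were DESeq2, RLE normalisation, other filters, a block for the replicate number, each replicate left out, an adjusted *p* of 0.01 and no fold limit. The test was also run on simulated counts of independent samples, which cannot check for samples that share a mouse. Tables were made with Python 3.11.15 and pandas 2.3.3.

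The genes studied and the lists beside them were chosen with earlier results of these data known. The text names all 10 genes, any of the other pathway genes that was called, *Plod3*, *P4ha3*, *Loxl4*, *P4hb*, *Bmp1*, *Pcolce2*, *Col1a1*, *Col1a2*, *Col3a1*, the called genes of the oxygen, TGF-beta and substrate lists, cell type markers, *Ly6a* and *Dmd*. *Fkbp10*, *Ppib*, *Colgalt1*, *P3h2*, the untested pathway genes and the overlapping *Htra2*, *Znhit1*, *Snx22*, *Unc13a* and *Gm4524* were named after their values were seen. A gene of the TGF-beta list and a gene of the Schwann cell list are not reported here and are left out of the counts of those lists. The series says that 4 mice were used, so the 8 samples are not all separate mice. Which samples share a mouse is not given. The fits without a block and the permutation of labels treated the 8 samples as independent, and *p*-values measure the spread between these samples.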

Additional observations from a re-analysis of the deposited data

Results flagged for a closer look

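In groups of 4 a sample was marked where its gap to the nearest of the others, as a share of the group's range, exceeded Dixon's 95% limit. Chance marks about 1 in 20 groups, and 6 of the 64 groups examined were marked. Among the 10 genes, *Loxl1* was low in SCA1-Low-FAPs replicate 3, at 374 CPM, and *P4ha2* was high in SCA1-Low-FAPs replicate 2, at 133 CPM. The share of *Plod2* among the lysyl hydroxylases was low in SCA1-Low-FAPs replicate 4, at 32.3%, in a group whose range was narrow. SCA1-Low-FAPs replicate 3 was also set apart in *Adamts2*, with the highest value of its group at 315 CPM, and in *Ldha*, with the lowest at 476 CPM. *Tagln* was high in SCA1-High-FAPs replicate 2, at 384 CPM.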

How the results depend on the processing

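The count of 1 called member became 2 with DESeq2, with no filter beyond 1 count and with at least 10 counts in every sample, through *Plod2* each time, and ranged from 1 to 2 without 1 library (2 without SCA1-High-FAPs replicate 2 or SCA1-Low-FAPs replicate 3). The other pathway genes gave 1 to 2 calls without 1 library (2 without SCA1-Low-FAPs replicate 3). Over all genes, 782 calls became 307 at an adjusted *p* of 0.01 and 410 to 1017 without 1 library, with 417 without SCA1-Low-FAPs replicate 1 and 410 without replicate 4. Alternatives for the lists beside the 10 genes were added after the data were seen. The 2 called substrates became 1 with no filter and at 0.01, and 1 to 2 without 1 library. The 3 called low-oxygen genes became 1 at 0.01 and 1 to 3 without 1 library, with 1 without SCA1-Low-FAPs replicate 1. The 4 called TGF-beta genes became 1 at 0.01 and 1 to 4 without 1 library (1 without SCA1-High-FAPs replicate 1 or 4 or SCA1-Low-FAPs replicate 1 or 4, 2 without SCA1-High-FAPs replicate 3). Directions turned for *Loxl2* without SCA1-High-FAPs replicate 2 (log2 fold change -0.0333, and 0.322 at most without another library) and for *Serpinh1* without SCA1-High-FAPs replicate 3 (-0.0823), SCA1-Low-FAPs replicate 2 (-0.0874) and SCA1-Low-FAPs replicate 3 (-4.12e-05), with 0.178 at most. The cause was not tested. Every family share kept its direction in the fits run. Their missing the threshold says nothing of stability, since a single share cannot pass after adjustment and the fit with the block cannot pass at all. With only the isoenzymes among the 10 genes in the denominator, the *P4ha1* share (of *P4ha1* and *P4ha2*) differed by -5.13 percentage points. The *Plod2* share (of *Plod1* and *Plod2*) then differed by -10.9 and the *Lox* share by -2.29 percentage points.

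Replicate numbers occur in both groups, but deviations of same-numbered samples did not go together (correlations from -0.0502 to 0.00673, other pairs from -0.282 to 0.255, 0 of 4 samples best with their own number), so the numbers were not taken as pairs. With a replicate block 697 genes were called, among them 1 of the 10 members, *Loxl3* (0.94, edgeR adjusted *p* = 0.00651), and 1 other pathway gene, *Adamts2* (0.0196). *Plod2* had an adjusted *p* of 0.0911 with the block, and *Ly6a*, *Bnip3* and *Postn* were not called. *Tnmd* was called with the block (0.0455). Depth limits the low members: *Loxl2* and *Plod1* had under 100 counts in their lowest sample.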
